A study of Homo sapiens with 18 samples.

Results

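Trichostatin A (TSA) changed many genes in the same direction in drug-tolerant persister cells and in the parental cells they came from. Others changed in opposite directions or in 1 state alone. The contrast described here is the TSA effect in persisters minus the TSA effect in parental cells. It was taken from 12 of the 18 libraries of the series, those of the groups that make up both effects, in a single model. The cells are PC9, a human lung cancer line that depends on the receptor EGFR. TSA-treated persisters (3 libraries, a to c) were cells that survived 8 days of 1 µM erlotinib, an inhibitor of EGFR, and then received 50 nM TSA for 5 hours without a change of medium. Persisters without TSA (3 libraries) were the survivors of the same erlotinib course. The protocol text of this group also describes samples sorted for ALDH activity, and none of these 12 libraries is titled as one. TSA-treated parental cells (3 libraries) received 50 nM TSA for 5 hours and no erlotinib. DMSO-treated parental cells (3 libraries) received the vehicle. All come from a single cell line, the labels do not name erlotinib among the agents of the TSA step, and they do not say whether replicates came from separate cultures, so that p-values measure the spread between these libraries, which may be technical.

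Histone deacetylases remove acetyl groups from lysines of histones and of other proteins, and TSA blocks the zinc-dependent enzymes of this kind. Acetylation of histones rises within hours of such a block, and transcription rises at some genes and falls at others, among them genes whose enhancers lose acetyl-lysine readers to newly acetylated chromatin. Persisters are a small surviving fraction of a drug-treated population that cycle little and can return to growth once the drug is gone, and their chromatin state has been linked to their survival. The series asks how RNA, LINE-1 repeats included, differs among parental, drug-treated and drug-tolerant populations.

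Levels are CPM, gene counts scaled to a common total of gene reads and adjusted between libraries by TMM, and are compared for 1 gene between groups, not between genes. Effects are log2 fold changes with their standard errors from edgeR's quasi-likelihood test with Benjamini-Hochberg adjustment, and a gene was called where the adjusted p was under 0.05. Gene reads ran from 32139350 in TSA-treated persisters a to 128293188 in TSA-treated parental cells c, and the next lowest library had 68775375. TSA-treated persisters a stood apart: spike-in RNA took 46.0% of its reads, where no other library exceeded 0.763%, and repeats of ribosomal RNA took 7.09%, where no other library exceeded 2.93%. Its best correlation with a library of its group was 0.981. TSA-treated parental cells a came next with 0.991 and had 5.31% of gene reads from mitochondrial genes, while the other 10 libraries reached at least 0.998. Every result below was therefore also computed without replicate a of both TSA groups. The epithelial genes EPCAM, with 332 to 726 CPM, and KRT8, with 895 to 1410 CPM, were expressed in all 12 libraries. Fibroblast markers summed to 28.9 to 33.2 CPM in TSA-treated persisters, 24.4 to 28.5 CPM in persisters without TSA, 13.2 to 15.3 CPM in TSA-treated parental cells and 4.75 to 4.87 CPM in DMSO-treated parental cells, nearly all of it COL1A1, while LUM and DCN were at 0 in both parental groups. Their means were 0.219 and 0.145 CPM in TSA-treated persisters and 0.292 and 0.312 CPM in persisters without TSA. Endothelial markers summed to 34.9 to 39.1 CPM in TSA-treated persisters, 35.4 to 36.2 CPM in persisters without TSA, 22.1 to 24.4 CPM in TSA-treated parental cells and 17.7 to 18.7 CPM in DMSO-treated parental cells. These sums were mostly CDH5 and PECAM1 in parental cells and CDH5 in persisters without TSA. In TSA-treated persisters CDH5 was lower (19.8 against 31.3 CPM without TSA). KDR (10.3 against 0.599 CPM) and VWF (3.67 against 0.802 CPM) were higher there. Leukocyte markers were nearly all CD68, with PTPRC at most at a mean of 0.0545 CPM in a group. In bulk RNA, fewer cells of a type and less RNA per cell cannot be told apart.

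Some libraries also differed by transcript length. Median log2 ratios to the control mean were taken over genes whose longest GENCODE transcript had at least 9000 bases (854 genes) and over those under 1500 bases (1697 genes). The median of the long genes minus that of the short ones was -0.92 in TSA-treated parental cells a, -0.31 in b and -0.08 in c. In TSA-treated persisters a, b and c it was 0.07, 0.04 and 0.05, and in the 6 control libraries it lay between -0.05 and 0.05. Long transcripts thus read lower in 2 of the 3 TSA-treated parental libraries, and a fit with an offset for length in each library was added after this was seen. That fit took the call of the difference from 6 named genes and gave it to 1. Its value is given beside some of these results, not beside every gene.

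**Figure D1:**
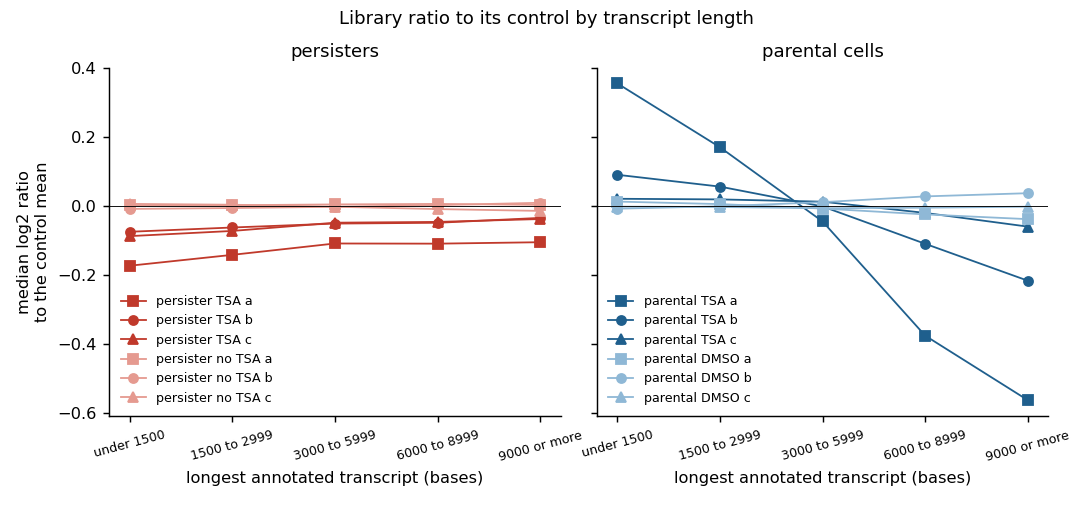
Median log2 ratio of each library to the mean of its control group (vertical axis) in 5 classes of the longest annotated transcript (horizontal axis, bases), persisters on the left and parental cells on the right. From the shortest to the longest class TSA-treated parental cells a change by -0.92 log2 units and b by -0.31, while the persister lines are nearly flat.

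The question of the contrast is which TSA responses persisters and parental cells share. Of 17024 genes tested, 5387 (31.6%) had a TSA effect that differed between both states: 2119 (12.4%) were higher in persisters than the parental effect and 3268 (19.2%) lower. In persisters TSA changed 51.5% of genes: it raised 3913 genes (23%) and lowered 4860 (28.5%), and in parental cells it changed 53.6%, raising 4766 (28%) and lowering 4359 (25.6%). Counts of list members below should be read beside these shares of all genes. Without replicates a, 9353 genes (54.9%) were called for the difference, 3679 higher (21.6%) and 5674 lower (33.3%). The length offset turned the balance: 39.3% of the genes called were higher without it and 51.0% with it (2853 higher and 2742 lower). The median difference over all genes was -0.13, the value beside which list medians below should be read, and it was -0.10 without replicates a, -0.07 with median-ratio size factors, -0.54 with library sizes from all spike-ins, 0.05 with the same without TSA-treated persisters a, and -0.01 with the length offset, so that its sign rests on the scaling.

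Genes were sorted by their calls. A shared response was called in both states in the same direction, and 5347 genes (31.4%) had one: 2515 rose and 2832 fell in both. Among these the size of the effect differed for 1552 genes (9.12%), and for 3795 (22.3%) no difference in size was called. A persister-only response, called in persisters and for the difference but not in parental cells, was found for 1369 genes (8.04%), of which 561 rose and 808 fell. Parental-only responses, defined in the same way, numbered 1648 (9.68%), 981 of them up and 667 down. Opposite responses numbered 682 (4.01%): 227 rose in persisters and fell in parental cells, and 455 fell in persisters and rose in parental cells. A further 1375 genes (8.08%) passed in persisters and 1448 (8.51%) in parental cells with no call on the difference, so they are not counted as particular to either state. Neither effect was called for 5019 genes (29.5%), and 136 (0.799%) passed for the difference alone.

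Removing replicates a moved many genes between these classes. Shared responses then numbered 8279 and 5338 of the first 5347 remained shared. Opposite responses numbered 1612 and 676 of 682 remained opposite. The one-sided classes held less firmly: 789 of 1369 persister-only genes and 861 of 1648 parental-only genes kept their class, while 209 and 430 of them became opposite, as the effect that had missed the threshold now passed it with the other sign. Across genes the correlation of both effects was 0.62 (Pearson) and 0.67 without replicates a, a description over genes that are not independent, and 68.8% of genes had the same sign in both states. The 2 effects share no library. Among the genes named below as one-sided, ICAM1, INSIG1 and TYMS had a shared response without replicates a, and CDKN1A, FDFT1, ISG15, JUN, JUNB, NFKBIA and SPRY4 an opposite one.

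**Figure D2:**
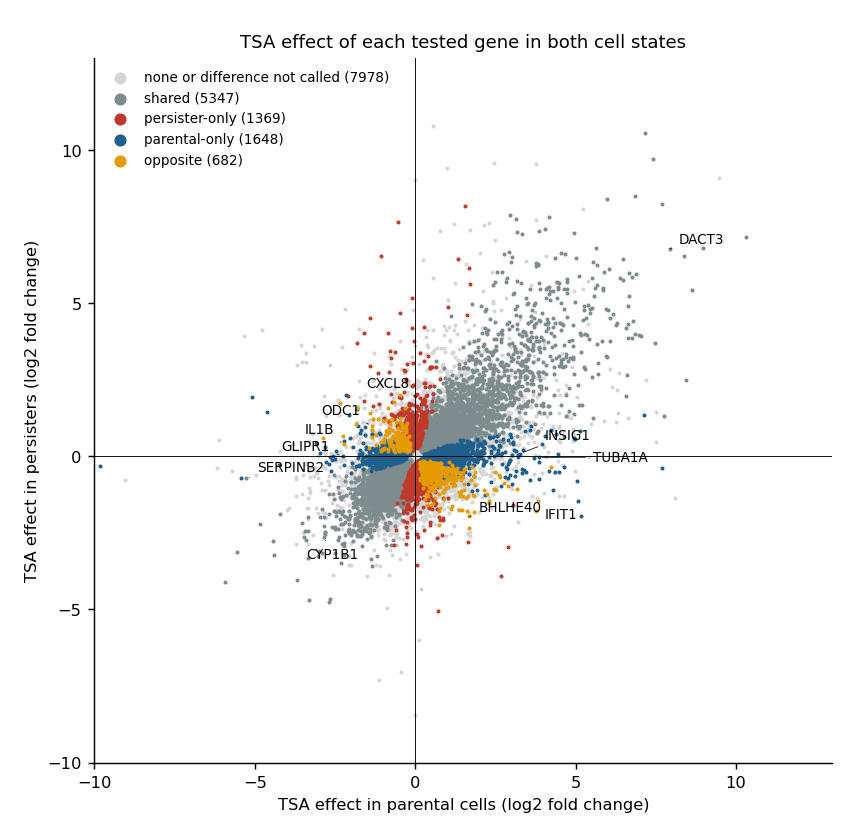
TSA effect of each of 17024 genes in parental cells (horizontal axis, log2 fold change) and in persisters (vertical axis), coloured by class, with counts in the legend and 11 genes labelled for orientation. Shared responses (5347) run along the diagonal, parental-only responses (1648) along the horizontal axis, persister-only responses (1369) along the vertical axis, and opposite responses (682) lie where both signs differ.

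Shared gains were led by genes that were close to silent without TSA, chosen by the smaller of both effects. DACT3, an inhibitor of WNT signalling, had 28.8, 26.3 and 25.1 CPM in TSA-treated persisters and 0.263, 0.234 and 0.225 CPM in persisters without TSA, with 15.5, 12.2 and 10.6 CPM in TSA-treated parental cells and 0.0413, 0.0270 and 0.0840 CPM in DMSO-treated parental cells. All 6 libraries without TSA were under 0.3 CPM, and the effects were 6.78 ± 0.22 in persisters and 7.94 ± 0.26 in parental cells, a difference of -1.16 ± 0.40 (adjusted p = 0.0452); the length offset left a difference of -1.01 (adjusted p = 0.0725). SLC2A4, the insulin-regulated glucose transporter, had 16.96, 16.7 and 17.3 CPM in TSA-treated persisters and 0.275, 0.160 and 0.132 CPM in persisters without TSA, with 8.82, 7.60 and 7.73 CPM in TSA-treated parental cells and 0.234, 0.202 and 0.308 CPM in DMSO-treated parental cells. The TSA groups did not overlap their controls, and the gain was larger in persisters, with effects of 6.47 ± 0.23 in persisters and 5.01 ± 0.22 in parental cells, a difference of 1.45 ± 0.31 (adjusted p = 0.00447).

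SYT11, of the synaptotagmin family of vesicle proteins, rose more in persisters, with effects of 5.66 ± 0.28 in persisters and 3.87 ± 0.35 in parental cells, a difference of 1.79 ± 0.52 (adjusted p = 0.021). SNAI1, a repressor of epithelial genes, did so too, with effects of 3.49 ± 0.18 in persisters and 2.21 ± 0.17 in parental cells, a difference of 1.27 ± 0.24 (adjusted p = 0.00209). DHRS2, a dehydrogenase known as a target of HDAC inhibitors, had effects of 1.36 ± 0.06 in persisters and 0.87 ± 0.06 in parental cells, a difference of 0.50 ± 0.08 (adjusted p = 8.74e-04). In the other direction, TP53INP1, a p53 target in autophagy, rose more in parental cells, with effects of 1.64 ± 0.14 in persisters and 4.16 ± 0.18 in parental cells, a difference of -2.52 ± 0.22 (adjusted p = 1.27e-05). ELF3, an epithelial transcription factor, followed with effects of 0.68 ± 0.06 in persisters and 2.49 ± 0.07 in parental cells, a difference of -1.81 ± 0.09 (adjusted p = 2.10e-07).

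Shared losses included CYP1B1, a cytochrome P450 enzyme, which had 125, 116 and 116 CPM in TSA-treated persisters and 738, 735 and 737 CPM in persisters without TSA, with 29.8, 35.4 and 36.4 CPM in TSA-treated parental cells and 241, 253 and 236 CPM in DMSO-treated parental cells. Every TSA library lay far below its controls, and the effects were -2.63 ± 0.08 in persisters and -2.85 ± 0.08 in parental cells, a difference of 0.21 ± 0.10 (adjusted p = 0.14). PDCD1LG2, the immune checkpoint ligand PD-L2, fell in both states with effects of -2.43 ± 0.11 in persisters and -3.44 ± 0.12 in parental cells, a difference of 1.01 ± 0.16 (adjusted p = 6.12e-04). LRIG1, a negative regulator of EGFR family receptors, fell with effects of -2.55 ± 0.20 in persisters and -2.81 ± 0.21 in parental cells, a difference of 0.25 ± 0.28 (adjusted p = 0.528), and the sign of its difference turned without replicates a (-0.15). FOSL1, an AP-1 subunit induced by ERK signalling, fell in both states and more in persisters, with effects of -3.26 ± 0.20 in persisters and -1.20 ± 0.18 in parental cells, a difference of -2.06 ± 0.26 (adjusted p = 1.52e-04).

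Most genes of the machinery that writes and reads acetyl-lysine fell in both states. Of 19 acetyltransferases and acetyl-lysine readers tested, 14 fell and 2 rose in persisters (median effect -1.05), 12 fell and 2 rose in parental cells (-0.95), and 14 were shared responses, 12 of them losses. EP300, the acetyltransferase p300, had 64.3, 56.1 and 55.9 CPM in TSA-treated persisters and 127, 132 and 125 CPM in persisters without TSA, with 32.3, 63.6 and 80.9 CPM in TSA-treated parental cells and 136, 143 and 150.5 CPM in DMSO-treated parental cells. All TSA libraries lay below their controls, and TSA-treated parental cells a, with the length trait described above, were the lowest of their group. Its effects were -1.12 ± 0.23 in persisters and -1.28 ± 0.23 in parental cells, a difference of 0.15 ± 0.33 (adjusted p = 0.759). CREBBP, its close relative CBP, had effects of -1.57 ± 0.15 in persisters and -1.63 ± 0.15 in parental cells, a difference of 0.07 ± 0.20 (adjusted p = 0.839). KAT5, the catalytic subunit of the TIP60 complex, fell more in persisters, with effects of -2.16 ± 0.07 in persisters and -1.26 ± 0.07 in parental cells, a difference of -0.90 ± 0.09 (adjusted p = 4.18e-05). KAT8, an acetyltransferase of histone H4, was persister-only, with effects of -0.91 ± 0.10 in persisters and 0.12 ± 0.10 in parental cells, a difference of -1.03 ± 0.14 (adjusted p = 2.07e-04). KAT2B and NCOA3, both coactivators with acetyltransferase activity, rose in both states. The list's median difference was -0.01 against -0.13 over all genes, and its sign changed between scalings.

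Of 22 genes of heterochromatin and H3K9 methylation, 15 had shared responses, 12 of them losses, and the difference was called for 7 lower and 2 higher. Over all genes 31.4% had a shared response, and 19.2% were lower and 12.4% higher in the difference. SETDB1, an H3K9 methyltransferase that silences repeats, had 8.91, 12.3 and 12.7 CPM in TSA-treated persisters and 33.7, 33.5 and 32.4 CPM in persisters without TSA, with 16.6, 17.5 and 17.8 CPM in TSA-treated parental cells and 33.9, 34.7 and 33.4 CPM in DMSO-treated parental cells. The TSA groups lay below their controls without overlap, with effects of -1.54 ± 0.11 in persisters and -0.97 ± 0.11 in parental cells, a difference of -0.57 ± 0.16 (adjusted p = 0.0172). UHRF1, which carries DNA methylation through replication, fell with effects of -1.94 ± 0.10 in persisters and -1.20 ± 0.09 in parental cells, a difference of -0.74 ± 0.13 (adjusted p = 0.00162). DNMT3A, a DNA methyltransferase, fell with effects of -1.34 ± 0.11 in persisters and -0.62 ± 0.11 in parental cells, a difference of -0.72 ± 0.16 (adjusted p = 0.00441). CBX1, the heterochromatin protein HP1 beta, was the member with an opposite response, with effects of -0.62 ± 0.07 in persisters and 0.21 ± 0.07 in parental cells, a difference of -0.83 ± 0.11 (adjusted p = 1.54e-04). Among 23 histone deacetylases, sirtuins and their corepressors, 6 rose and 10 fell in persisters, 9 rose and 5 fell in parental cells, and 8 were lower and 2 higher in the difference. HDAC7 fell in both states, with effects of -1.76 ± 0.07 in persisters and -0.74 ± 0.07 in parental cells, a difference of -1.02 ± 0.09 (adjusted p = 1.69e-05), and HDAC5 rose in both, with effects of 0.70 ± 0.10 in persisters and 1.66 ± 0.10 in parental cells, a difference of -0.96 ± 0.14 (adjusted p = 4.26e-04).

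Most interferon response genes fell in persisters and rose, or were not called, in parental cells. Type I interferons signal through a complex that holds STAT2 and IRF9, binds interferon-stimulated response elements and turns on antiviral genes such as the IFIT, OAS and MX families. Of 25 interferon response genes, TSA lowered 23 in persisters and raised 0 (median effect -1.26), and it raised 14 in parental cells and lowered 0 (1.18). The difference was called for 24, all lower, with a median of -2.42 against -0.13 over all genes, and it stayed between -2.09 and -2.94 under the scalings tried. Opposite responses numbered 12, persister-only responses 10, and 2 members, ISG15 and OASL, were parental-only. Without replicates a, 24 fell in persisters, 16 rose in parental cells, 23 were called for the difference and 15 were opposite, where 41% of all genes fell in persisters, 37.3% rose in parental cells, 33.3% were lower in the difference and 9.47% were opposite; IFI27 then lost its call.

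IFIT1, which binds foreign RNA caps, had 31.1, 32.5 and 31.0 CPM in TSA-treated persisters and 112, 109 and 109 CPM in persisters without TSA, with 3.48, 3.65 and 3.36 CPM in TSA-treated parental cells and 0.303, 0.148 and 0.322 CPM in DMSO-treated parental cells. TSA-treated persisters lay far below persisters without TSA, and TSA-treated parental cells lay far above their DMSO controls, though under both persister groups. The effects were -1.80 ± 0.11 in persisters and 3.76 ± 0.16 in parental cells, a difference of -5.56 ± 0.20 (adjusted p = 1.08e-08). OAS1, a sensor of double-stranded RNA, had 61.9, 64.8 and 63.8 CPM in TSA-treated persisters and 142, 138 and 136 CPM in persisters without TSA, with 2.08, 2.26 and 2.10 CPM in TSA-treated parental cells and 0.812, 0.728 and 0.868 CPM in DMSO-treated parental cells. No groups overlapped, and the effects were -1.13 ± 0.06 in persisters and 1.42 ± 0.08 in parental cells, a difference of -2.55 ± 0.11 (adjusted p = 4.70e-08). IFIT3, a partner of IFIT1, had 9.65, 6.31 and 6.20 CPM in TSA-treated persisters and 55.3, 53.7 and 51.0 CPM in persisters without TSA, with 0.771, 1.11 and 1.45 CPM in TSA-treated parental cells and 1.40, 1.42 and 1.30 CPM in DMSO-treated parental cells. The persister groups were apart, while TSA-treated parental cells spanned their controls, and the effects were -2.87 ± 0.20 in persisters and -0.27 ± 0.22 in parental cells, a difference of -2.59 ± 0.29 (adjusted p = 7.11e-05).

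STAT2 and IRF9, which carry the signal, fell in persisters and rose in parental cells. IRF9 had 10.4, 5.70 and 5.10 CPM in TSA-treated persisters and 33.8, 32.3 and 33.4 CPM in persisters without TSA, against 4.43, 3.63 and 2.97 CPM in TSA-treated parental cells and 2.38, 1.98 and 2.23 CPM in DMSO-treated parental cells. TSA brought it close to the parental range in persisters, with replicate a above b and c, and its effects were -2.25 ± 0.24 in persisters and 0.74 ± 0.24 in parental cells, a difference of -2.99 ± 0.34 (adjusted p = 6.63e-05). STAT2 had effects of -0.50 ± 0.09 in persisters and 1.12 ± 0.10 in parental cells, a difference of -1.62 ± 0.14 (adjusted p = 7.79e-06). Among other targets, IFI6, an interferon-induced mitochondrial protein, had effects of -0.35 ± 0.11 in persisters and 4.23 ± 0.26 in parental cells, a difference of -4.58 ± 0.29 (adjusted p = 1.13e-06). OASL, a regulator of the RNA sensor RIG-I, was not called in persisters, with effects of 0.03 ± 0.09 in persisters and 1.66 ± 0.09 in parental cells, a difference of -1.62 ± 0.13 (adjusted p = 4.97e-06). In ISG15, a ubiquitin-like protein, TSA-treated persisters a stood at 111 CPM against 53.2 and 61.9 CPM in b and c, and the persister effect was called once replicates a were left out (-0.65).

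Several members had almost no reads in parental cells, where a fold says little. XAF1 had 3 reads over the 3 TSA-treated parental libraries and 0 over the DMSO-treated ones, so no parental fold is given; its level was 6.30, 7.21 and 6.29 CPM in TSA-treated persisters and 51.6, 48.8 and 53.4 CPM in persisters without TSA. TRIM22 had 26 reads in TSA-treated and 1 in DMSO-treated parental cells, a ratio of 18.7 with a counting interval of 3.07 to 766. OAS2 had 7 in TSA-treated and 3 in DMSO-treated parental cells, a ratio of 1.68 with an interval of 0.383 to 10.0. Restricted to the 19 members with at least 10 reads in each parental group, the median parental effect was 0.90, 13 rose in parental cells, and all 19 were lower in the difference with a median of -1.98.

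The promoters of IFIT1 and IFIT3 are shown because they hold matches to the element named above. They are the 250 bases before the RefSeq start of each gene, on the plus strand of GRCh38.p14, at chr10:89392373-89392622 and chr10:89327747-89327996, with capitals for matches to the core of that element, GAAA, any 2 bases and GAAA, on either strand.
IFIT1: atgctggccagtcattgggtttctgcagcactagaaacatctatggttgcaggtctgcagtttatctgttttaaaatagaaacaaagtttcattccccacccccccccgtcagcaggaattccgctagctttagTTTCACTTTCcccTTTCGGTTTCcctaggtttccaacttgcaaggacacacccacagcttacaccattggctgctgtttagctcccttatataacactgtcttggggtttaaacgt
IFIT3: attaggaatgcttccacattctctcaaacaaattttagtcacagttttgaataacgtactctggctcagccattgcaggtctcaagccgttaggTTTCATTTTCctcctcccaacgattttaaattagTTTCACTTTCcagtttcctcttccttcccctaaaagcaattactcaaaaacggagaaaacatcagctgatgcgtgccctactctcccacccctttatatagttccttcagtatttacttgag
Each holds 2 matches. The letters occurred in 3.07% of 27305 promoters of the same length, in 2.33% of 12803 tested genes with a promoter sequence and in 11 of the 18 interferon response genes that had one. They occurred in 20 of 368 (5.43%) genes with an opposite response that fell in persisters and in 0 of 182 with the other orientation. The class that fell in persisters includes 12 genes of the interferon list, among them IFIT1 and IFI6, both with matches. Its share therefore partly restates that list. A match is a description of letters, not of a bound factor.

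Every cholesterol synthesis gene tested rose in parental cells, while in persisters they went either way or were not called. When sterols run low, SREBF2 is released from the membrane and turns on the mevalonate pathway, and INSIG1 holds it back. All 18 genes of the list rose in parental cells (median effect 1.34), and 5 rose and 4 fell in persisters (0.02, with a sign that changed between scalings). The difference was called for 17, all lower, with a median of -1.29, and for all 18 without replicates a. Parental-only responses numbered 8, shared ones 5 and opposite ones 4.

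INSIG1 had 61.7, 66.1 and 65.2 CPM in TSA-treated persisters and 60.4, 60.9 and 60.7 CPM in persisters without TSA, with 226, 221 and 211 CPM in TSA-treated parental cells and 22.1, 23.6 and 23.0 CPM in DMSO-treated parental cells. The persister groups lay within a few CPM of each other, while TSA-treated parental cells were far above all other libraries. Its effects were 0.09 ± 0.05 in persisters and 3.26 ± 0.06 in parental cells, a difference of -3.17 ± 0.08 (adjusted p = 8.82e-10), although without replicates a the small persister effect of 0.12 was also called. MSMO1, a sterol demethylase, had 94.0, 95.3 and 89.5 CPM in TSA-treated persisters and 99.6, 93.3 and 103 CPM in persisters without TSA, with 145, 136 and 125 CPM in TSA-treated parental cells and 40.2, 41.8 and 37.5 CPM in DMSO-treated parental cells. Its persister groups overlapped, its parental groups did not, and the effects were -0.09 ± 0.07 in persisters and 1.76 ± 0.07 in parental cells, a difference of -1.85 ± 0.10 (adjusted p = 4.81e-07). FDFT1, which makes squalene, was parental-only with a difference of -1.58 ± 0.09. PMVK was the member whose difference was not called.

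The promoters of INSIG1 and MSMO1 are shown beside these values for 2 motifs that were searched in all promoters, the CCAAT box and the GC box, CCAAT and GGGCGG on either strand, in capitals. They lie on the plus strand of GRCh38.p14 (RefSeq) at chr7:155297628-155297877 and chr4:165327419-165327668.
INSIG1: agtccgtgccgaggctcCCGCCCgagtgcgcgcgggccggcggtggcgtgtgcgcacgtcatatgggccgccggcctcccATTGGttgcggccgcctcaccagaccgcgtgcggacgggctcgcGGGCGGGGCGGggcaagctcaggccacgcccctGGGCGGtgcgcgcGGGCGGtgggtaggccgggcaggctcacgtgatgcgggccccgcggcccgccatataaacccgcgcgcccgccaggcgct
MSMO1: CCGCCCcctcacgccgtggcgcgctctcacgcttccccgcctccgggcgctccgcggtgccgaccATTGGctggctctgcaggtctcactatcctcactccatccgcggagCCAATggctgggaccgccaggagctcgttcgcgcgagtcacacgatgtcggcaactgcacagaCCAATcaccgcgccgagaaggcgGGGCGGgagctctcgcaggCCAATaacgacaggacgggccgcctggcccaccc
CCAAT occurred in 10 of the 13 cholesterol genes with a promoter sequence (76.9%), against 34.6% of the tested genes. GGGCGG occurred in 13 of 13, against 63.7% of the tested genes.

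**Figure D3:**
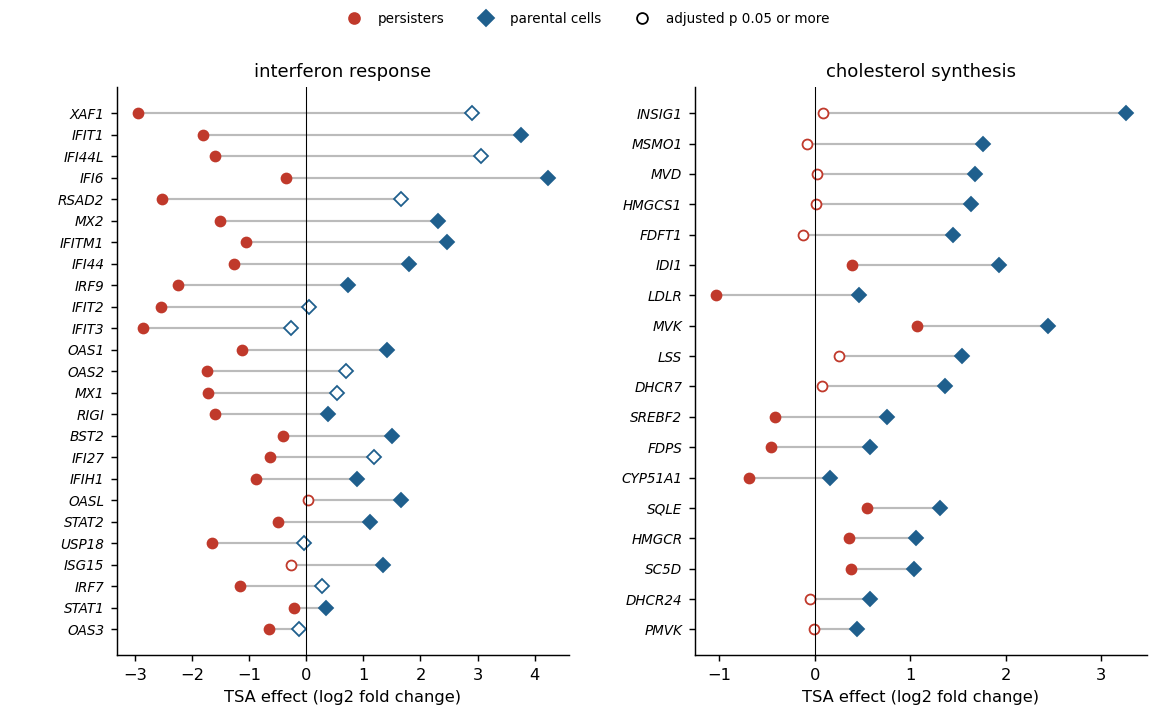
TSA effects (horizontal axis, log2 fold change) of 25 interferon response genes and 18 cholesterol synthesis genes, red circles for persisters and blue diamonds for parental cells, open where the adjusted p was 0.05 or more. Interferon genes lie mostly left of 0 in persisters and mostly right of it in parental cells, and cholesterol genes all lie right of 0 in parental cells and around 0 in persisters.

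Other parental-only gains came from several functions. ICAM1, an adhesion molecule of inflamed cells, had 549, 590.2 and 582 CPM in TSA-treated persisters and 531, 539 and 521 CPM in persisters without TSA, with 306, 326 and 330.5 CPM in TSA-treated parental cells and 52.1, 53.5 and 54.5 CPM in DMSO-treated parental cells. Persisters stood above 500 CPM with or without TSA, and the effects were 0.11 ± 0.05 in persisters and 2.59 ± 0.06 in parental cells, a difference of -2.48 ± 0.08 (adjusted p = 3.95e-09). TUBA1A, a tubulin whose reads may be shared with close copies, had 153, 146 and 138 CPM in TSA-treated persisters and 151, 149.5 and 148 CPM in persisters without TSA, with 31.7, 27.8 and 26.1 CPM in TSA-treated parental cells and 2.04, 2.01 and 1.90 CPM in DMSO-treated parental cells. Its persister groups overlapped and its parental groups were far apart, with effects of -0.04 ± 0.07 in persisters and 3.84 ± 0.09 in parental cells, a difference of -3.88 ± 0.11 (adjusted p = 2.95e-09). BMF, a pro-apoptotic BH3-only protein, had 27.0, 23.5 and 23.3 CPM in TSA-treated persisters and 23.2, 22.7 and 23.7 CPM in persisters without TSA, with 8.13, 11.2 and 12.2 CPM in TSA-treated parental cells and 2.08, 1.58 and 1.69 CPM in DMSO-treated parental cells. Again the persister groups overlapped, and the effects were 0.08 ± 0.14 in persisters and 2.56 ± 0.16 in parental cells, a difference of -2.48 ± 0.21 (adjusted p = 8.95e-06). BBC3 (PUMA), also a BH3-only gene, had effects of -0.12 ± 0.21 in persisters and 2.96 ± 0.23 in parental cells, a difference of -3.08 ± 0.31 (adjusted p = 2.81e-05). CCNG2, a cyclin of quiescent cells, had 15.6, 18.9 and 19.4 CPM in TSA-treated persisters and 21.5, 19.7 and 21.2 CPM in persisters without TSA, with 36.4, 36.04 and 34.9 CPM in TSA-treated parental cells and 6.95, 7.16 and 6.53 CPM in DMSO-treated parental cells. TSA-treated parental cells were the high group, with effects of -0.21 ± 0.09 in persisters and 2.38 ± 0.10 in parental cells, a difference of -2.59 ± 0.13 (adjusted p = 2.92e-07). COL1A1, which made up nearly all of the fibroblast marker sum given above, had effects of 0.22 ± 0.09 in persisters and 1.60 ± 0.10 in parental cells, a difference of -1.38 ± 0.14 (adjusted p = 2.46e-05). Whether other cells had a part in it was not tested. LUM and DCN were at 0 in parental cells. They had 62 and 41 reads in TSA-treated persisters and 70 and 75 reads in persisters without TSA.

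Where persisters without TSA stood relative to TSA-treated parental cells differed among these genes. They were higher in ICAM1, TUBA1A, BMF and COL1A1, and lower in INSIG1, CCNG2 and EGR1. EGR1, an immediate early factor, had 13.4, 18.2 and 19.2 CPM in TSA-treated persisters and 15.96, 18.6 and 17.1 CPM in persisters without TSA, against 34.2, 31.8 and 31.8 CPM in TSA-treated parental cells and 9.85, 8.96 and 10.3 CPM in DMSO-treated parental cells. Its persister groups overlapped and its parental groups did not.

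Outside the interferon list, opposite responses with a gain in parental cells included BHLHE40, a repressor tied to hypoxia and the circadian clock. It had 14.97, 14.1 and 14.3 CPM in TSA-treated persisters and 57.7, 56.2 and 55.2 CPM in persisters without TSA, with 45.6, 48.2 and 48.8 CPM in TSA-treated parental cells and 15.2, 14.1 and 15.1 CPM in DMSO-treated parental cells. TSA-treated persisters lay at the level of DMSO-treated parental cells, and TSA-treated parental cells came near persisters without TSA. Its effects were -1.96 ± 0.07 in persisters and 1.69 ± 0.07 in parental cells, a difference of -3.65 ± 0.09 (adjusted p = 8.82e-10). CDKN2B, the cell cycle inhibitor p15, had 46.5, 52.0 and 52.5 CPM in TSA-treated persisters and 128, 131 and 132 CPM in persisters without TSA, with 25.2, 24.5 and 24.0 CPM in TSA-treated parental cells and 8.50, 7.67 and 8.30 CPM in DMSO-treated parental cells. No groups overlapped, and the effects were -1.37 ± 0.07 in persisters and 1.59 ± 0.07 in parental cells, a difference of -2.96 ± 0.10 (adjusted p = 5.45e-09). DDIT4, an inhibitor of mTORC1 induced by stress, had effects of -0.50 ± 0.11 in persisters and 2.48 ± 0.12 in parental cells, a difference of -2.98 ± 0.16 (adjusted p = 4.81e-07). GABARAPL1, an autophagy protein, had effects of -0.77 ± 0.07 in persisters and 1.27 ± 0.08 in parental cells, a difference of -2.05 ± 0.11 (adjusted p = 3.43e-07). HEXIM1, which sequesters the elongation factor P-TEFb, had effects of -0.42 ± 0.06 in persisters and 0.36 ± 0.06 in parental cells, a difference of -0.78 ± 0.09 (adjusted p = 8.32e-05).

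Genes that fell in parental cells and rose in persisters had several functions. ODC1, the first enzyme of polyamine synthesis, had 407, 406 and 395 CPM in TSA-treated persisters and 204, 198 and 202 CPM in persisters without TSA, with 310.3, 288 and 267 CPM in TSA-treated parental cells and 750.1, 755 and 713 CPM in DMSO-treated parental cells. TSA raised it in persisters and lowered it in parental cells without overlap between groups, with effects of 1.00 ± 0.06 in persisters and -1.36 ± 0.06 in parental cells, a difference of 2.36 ± 0.09 (adjusted p = 1.31e-08). AMD1, which makes the aminopropyl donor of that pathway, had effects of 0.17 ± 0.05 in persisters and -1.07 ± 0.05 in parental cells, a difference of 1.24 ± 0.07 (adjusted p = 7.90e-07). Polyamine genes did not go one way: of 12, a set chosen after values were seen, 3 were higher and 4 lower in the difference. IL1B, the cytokine interleukin-1 beta, had 3.22, 2.77 and 3.07 CPM in TSA-treated persisters and 2.58, 2.11 and 2.18 CPM in persisters without TSA, with 10.3, 9.27 and 8.30 CPM in TSA-treated parental cells and 43.7, 43.4 and 41.5 CPM in DMSO-treated parental cells. It was lower in all persister libraries than in any parental one, and its effects were 0.39 ± 0.12 in persisters and -2.21 ± 0.11 in parental cells, a difference of 2.60 ± 0.16 (adjusted p = 9.33e-07). POLR3G, a subunit of RNA polymerase III, had effects of 0.26 ± 0.07 in persisters and -1.46 ± 0.07 in parental cells, a difference of 1.72 ± 0.10 (adjusted p = 6.32e-07).

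Both EGFR ligands named by the rule were in this class. EREG had 10.1, 8.73 and 8.57 CPM in TSA-treated persisters and 4.41, 3.51 and 4.11 CPM in persisters without TSA, with 11.1, 12.5 and 12.2 CPM in TSA-treated parental cells and 22.1, 23.8 and 21.4 CPM in DMSO-treated parental cells, with effects of 1.18 ± 0.11 in persisters and -0.91 ± 0.11 in parental cells, a difference of 2.09 ± 0.16 (adjusted p = 3.71e-06). HBEGF had effects of 0.58 ± 0.06 in persisters and -0.52 ± 0.06 in parental cells, a difference of 1.10 ± 0.09 (adjusted p = 5.56e-06). In each the persister groups moved up and the parental groups down, without overlap between a TSA group and its controls. A further ligand, AREG, rose in both states and more in persisters, with effects of 3.10 ± 0.15 in persisters and 0.66 ± 0.13 in parental cells, a difference of 2.44 ± 0.19 (adjusted p = 5.56e-06). TGFA fell in both, with effects of -0.98 ± 0.07 in persisters and -1.02 ± 0.07 in parental cells, a difference of 0.04 ± 0.10 (adjusted p = 0.783). Over the 22 genes of EGFR and ERK output, 9 rose and 12 fell in persisters, 7 rose and 9 fell in parental cells, and the difference was called for 7 higher and 6 lower. The feedback inhibitors SPRY1 and SPRY4 rose in persisters only, with differences of 1.09 ± 0.16 and 1.53 ± 0.31, and EPHA2, a receptor kinase raised by ERK, fell in persisters only. EPHA2 had 32.9, 29.5 and 29.98 CPM in TSA-treated persisters and 72.4, 76.7 and 72.7 CPM in persisters without TSA, against 192, 190.2 and 206 CPM in TSA-treated parental cells and 191, 187 and 206 CPM in DMSO-treated parental cells. Its parental groups overlapped, and the difference was -1.28 ± 0.09 (adjusted p = 2.57e-06).

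Some shared losses were far larger in parental cells. SERPINB2, a protease inhibitor of stressed epithelium, had 46.5, 54.5 and 55.2 CPM in TSA-treated persisters and 87.1, 84.8 and 85.5 CPM in persisters without TSA, with 0.189, 0.210 and 0.252 CPM in TSA-treated parental cells and 8.74, 8.90 and 8.43 CPM in DMSO-treated parental cells. TSA-treated parental cells were near 0, and TSA-treated persisters stayed above every parental library, with effects of -0.72 ± 0.08 in persisters and -5.28 ± 0.12 in parental cells, a difference of 4.56 ± 0.14 (adjusted p = 4.04e-09). HMGA2, an architectural chromatin protein of fetal and tumour cells, had 36.1, 34.8 and 34.7 CPM in TSA-treated persisters and 46.0, 44.3 and 43.8 CPM in persisters without TSA, with 117, 109 and 103 CPM in TSA-treated parental cells and 424, 431 and 424 CPM in DMSO-treated parental cells. Each TSA group lay below its controls, far more so in parental cells, with effects of -0.35 ± 0.06 in persisters and -1.96 ± 0.06 in parental cells, a difference of 1.61 ± 0.08 (adjusted p = 2.10e-07). GLIPR1, a secreted CAP family protein, was a parental-only loss, with effects of 0.01 ± 0.12 in persisters and -2.25 ± 0.15 in parental cells, a difference of 2.26 ± 0.19 (adjusted p = 7.11e-06). COL12A1, a collagen, and MDN1, a ribosome assembly ATPase, were also parental-only losses, with differences of 1.53 ± 0.33 and 1.63 ± 0.29. Both have very long transcripts, and in both TSA-treated parental cells a were the lowest library; the differences without replicates a were 1.22 and 1.26.

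Persister-only gains included a chemokine and regulators of the cytoskeleton and cell cycle. CXCL8, the neutrophil chemokine interleukin-8, had 73.3, 63.8 and 61.1 CPM in TSA-treated persisters and 18.6, 16.6 and 18.2 CPM in persisters without TSA, with 18.9, 18.03 and 17.4 CPM in TSA-treated parental cells and 16.5, 16.98 and 15.5 CPM in DMSO-treated parental cells. TSA-treated persisters alone stood apart, far above every other library, and the effects were 1.89 ± 0.09 in persisters and 0.15 ± 0.09 in parental cells, a difference of 1.74 ± 0.12 (adjusted p = 2.22e-06). DOCK4, an activator of the GTPase RAC, had 13.1, 10.6 and 11.04 CPM in TSA-treated persisters and 2.26, 1.95 and 1.83 CPM in persisters without TSA, with 3.85, 8.26 and 9.84 CPM in TSA-treated parental cells and 8.86, 9.57 and 8.56 CPM in DMSO-treated parental cells. Persisters without TSA were the low group, and TSA-treated parental cells a were below b and c; the effects were 2.52 ± 0.28 in persisters and -0.29 ± 0.26 in parental cells, a difference of 2.81 ± 0.37 (adjusted p = 2.11e-04). HIP1, an endocytic adaptor, was persister-only as well, with effects of 1.35 ± 0.17 in persisters and -0.21 ± 0.16 in parental cells, a difference of 1.55 ± 0.23 (adjusted p = 4.57e-04). CDKN1A, the cell cycle inhibitor p21, had 109.8, 96.5 and 90.3 CPM in TSA-treated persisters and 43.7, 44.9 and 45.3 CPM in persisters without TSA, with 89.6, 70.1 and 64.0 CPM in TSA-treated parental cells and 74.6, 70.4 and 75.5 CPM in DMSO-treated parental cells. The parental groups overlapped, and the effects were 1.15 ± 0.11 in persisters and 0.02 ± 0.11 in parental cells, a difference of 1.13 ± 0.16 (adjusted p = 3.14e-04). Without replicates a the parental effect of -0.13 was called as a loss, which made the response opposite. BCL2, the anti-apoptotic protein, was also persister-only, with 0.68 ± 0.13 in persisters and -0.12 ± 0.12 in parental cells, a difference of 0.80 ± 0.18 (adjusted p = 0.0057).

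**Figure D4:**
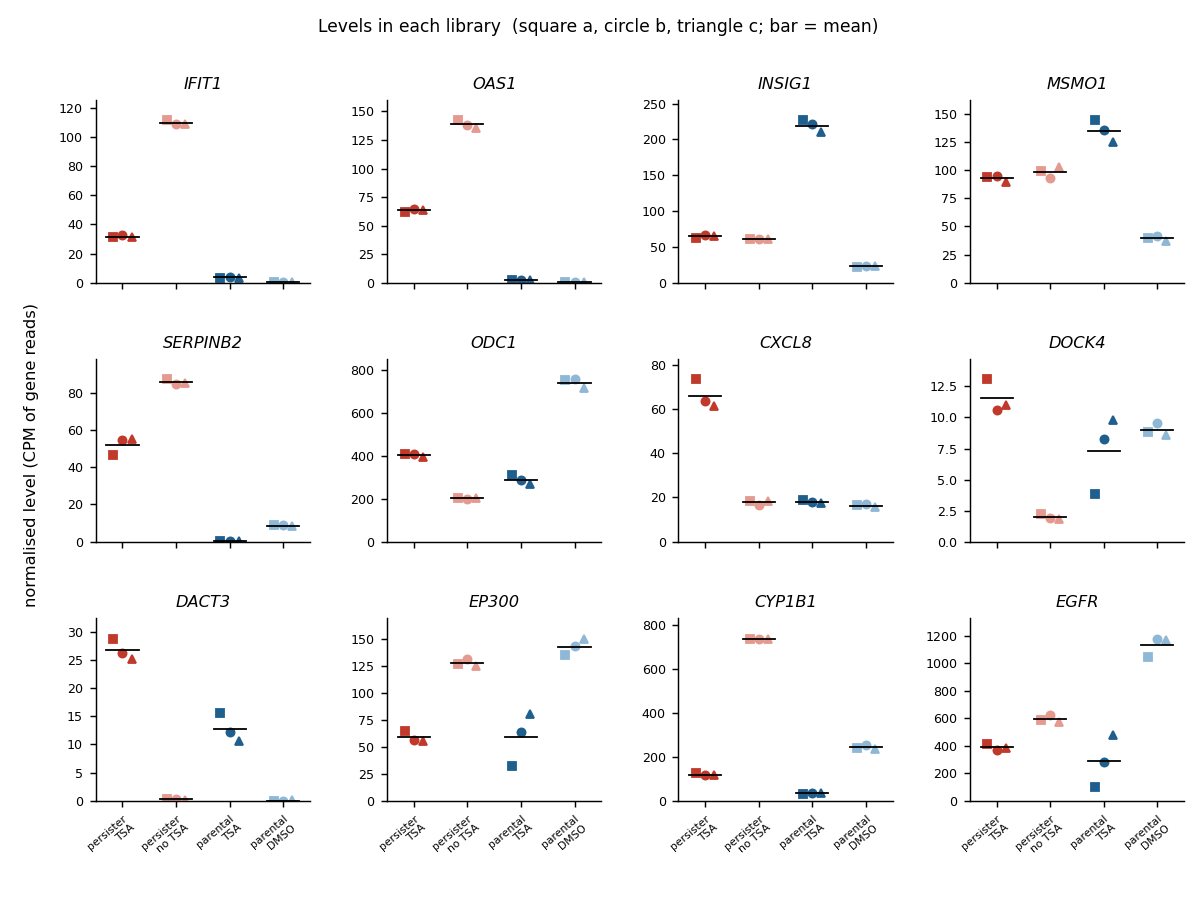
Normalised level (CPM, vertical axes from 0) of 12 genes in each library, for TSA-treated persisters, persisters without TSA, TSA-treated parental cells and DMSO-treated parental cells, with the mean as a bar. IFIT1 and OAS1 fall in persisters, INSIG1 and MSMO1 rise in parental cells alone, CXCL8 and DOCK4 rise in persisters alone, and DACT3, EP300 and CYP1B1 move in the same direction in both.

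Most mitosis genes fell in persisters. Of 25 mitosis genes, 17 fell and 1 rose in persisters (median effect -0.56), 4 fell and 8 rose in parental cells (0.10), and 17 were lower in the difference (-0.73). BIRC5, survivin, is not among these 25 and comes from the list of genes that HDAC inhibitors repress. It had 30.2, 37.7 and 38.1 CPM in TSA-treated persisters and 52.2, 49.7 and 50.1 CPM in persisters without TSA, with 178, 152 and 137 CPM in TSA-treated parental cells and 104, 104 and 99.2 CPM in DMSO-treated parental cells. No TSA group overlapped its controls, and the response was opposite, with effects of -0.52 ± 0.10 in persisters and 0.60 ± 0.10 in parental cells, a difference of -1.12 ± 0.15 (adjusted p = 1.83e-04). CCNB2, cyclin B2, did the same, with effects of -0.63 ± 0.09 in persisters and 1.05 ± 0.09 in parental cells, a difference of -1.68 ± 0.13 (adjusted p = 4.29e-06). PLK1, a mitotic kinase, fell in both states and more in persisters, with effects of -1.38 ± 0.07 in persisters and -0.21 ± 0.07 in parental cells, a difference of -1.17 ± 0.10 (adjusted p = 7.97e-06). DNA replication genes mostly fell in both: 20 of 25 fell in persisters, 16 fell and 2 rose in parental cells, 14 were shared losses, and 8 were lower and 2 higher in the difference. MCM7, of the replicative helicase, had effects of -1.05 ± 0.05 in persisters and -0.56 ± 0.05 in parental cells, a difference of -0.48 ± 0.07 (adjusted p = 2.53e-04). CCNE2, cyclin E2, fell more in parental cells, with effects of -0.91 ± 0.09 in persisters and -1.70 ± 0.09 in parental cells, a difference of 0.78 ± 0.13 (adjusted p = 8.00e-04). TYMS, thymidylate synthase, was persister-only with replicates a and shared without them, with a difference of -0.90 ± 0.14.

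Immediate early genes, which respond to signals within minutes, rose mostly in parental cells. Of 22, 15 rose and 3 fell in parental cells (median effect 0.76), 8 rose and 4 fell in persisters (-0.06, with a sign that changed between scalings), and 13 were lower and 1 higher in the difference. EGR1, FOS, FOSB, IER2, JUN, JUNB and JUND were parental-only gains, with differences between -1.76 for EGR1 and -0.47 for JUN. NR4A1, NR4A2, NR4A3 and BTG2 rose in both states with no difference called. Among 21 short-lived transcripts 14 were lower in the difference and none higher. Of 18 genes of ATF4 and ER stress, 11 were lower and 0 higher; ASNS, asparagine synthetase, had effects of -0.35 ± 0.08 in persisters and 0.57 ± 0.08 in parental cells, a difference of -0.92 ± 0.12 (adjusted p = 1.43e-04). Lysosome and autophagy genes rose for 13 of 19 in parental cells and 6 of 19 in persisters, with 12 lower and 4 higher in the difference. WIPI1, a phosphoinositide-binding autophagy protein, was parental-only, with effects of -0.03 ± 0.07 in persisters and 1.58 ± 0.08 in parental cells, a difference of -1.61 ± 0.11 (adjusted p = 1.60e-06). TFEB, a regulator of this group, rose in both, with effects of 0.80 ± 0.15 in persisters and 2.70 ± 0.17 in parental cells, a difference of -1.91 ± 0.23 (adjusted p = 9.51e-05).

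Of the genes known from other work with HDAC inhibitors, 8 of 22 induced and 7 of 17 repressed ones had a shared response, where 31.4% of all genes had one. Of the 22 that such inhibitors induce, 10 rose and 4 fell in persisters (median 0.50) and 14 rose and 1 fell in parental cells (0.77), with 11 lower and 5 higher in the difference. Of the 17 that they repress, 15 fell in persisters (-0.77) and 8 fell and 4 rose in parental cells (-0.26), with 11 lower and 1 higher. MYC fell in both states, with effects of -1.45 ± 0.09 in persisters and -0.97 ± 0.09 in parental cells, a difference of -0.48 ± 0.12 (adjusted p = 0.0104), a difference that the length offset reduced to -0.24 (adjusted p = 0.140). SOX9, a transcription factor of progenitor cells, had effects of -0.52 ± 0.08 in persisters and 0.23 ± 0.08 in parental cells, a difference of -0.75 ± 0.11 (adjusted p = 3.32e-04). Of 22 p53 targets, 11 rose and 4 fell in each state, and the difference was called for 5 higher and 6 lower, against 12.4% and 19.2% of all genes. ZMAT3, an RNA-binding p53 target, had an opposite response, with effects of 1.08 ± 0.09 in persisters and -0.26 ± 0.09 in parental cells, a difference of 1.34 ± 0.12 (adjusted p = 1.82e-05).

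Of 16 epithelial genes, 11 fell and 2 rose in persisters, 3 fell and 6 rose in parental cells, and 8 were lower in the difference and 0 higher. The lists of this paragraph should be read beside the 19.2% of all genes that were lower and the 12.4% that were higher. ESRP1, an epithelial splicing factor, had effects of -0.78 ± 0.06 in persisters and 0.40 ± 0.06 in parental cells, a difference of -1.18 ± 0.08 (adjusted p = 1.60e-06). Among 16 BCL2 family genes, 5 were lower and 2 higher in the difference, and BCL2L1, which encodes BCL-XL, fell in both states, with effects of -1.16 ± 0.05 in persisters and -0.74 ± 0.05 in parental cells, a difference of -0.42 ± 0.07 (adjusted p = 6.93e-04). The antigen presentation genes had 7 of 14 lower and 1 higher. TAP1, a peptide transporter, went opposite ways, with effects of -0.47 ± 0.09 in persisters and 0.54 ± 0.09 in parental cells, a difference of -1.01 ± 0.13 (adjusted p = 1.31e-04). Among 19 NF-kB and inflammatory genes 6 were lower and 4 higher. NFKBIA, the inhibitor of that pathway, was parental-only with effects of -0.13 ± 0.09 in persisters and 1.66 ± 0.09 in parental cells, a difference of -1.79 ± 0.13 (adjusted p = 2.63e-06), and TNF rose in both, with effects of 0.63 ± 0.15 in persisters and 4.65 ± 0.19 in parental cells, a difference of -4.03 ± 0.24 (adjusted p = 7.39e-07).

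Of 16 genes that restrict LINE-1 or belong to the APOBEC3 family, 8 fell in persisters and 0 rose, 4 rose and 2 fell in parental cells, and 7 were lower in the difference. APOBEC3F, a cytidine deaminase whose reads may be shared with its paralogs, had an opposite response, with effects of -0.48 ± 0.07 in persisters and 1.30 ± 0.07 in parental cells, a difference of -1.78 ± 0.10 (adjusted p = 6.32e-07). MOV10, an RNA helicase that limits LINE-1, had 82.6, 97.5 and 95.9 CPM in TSA-treated persisters and 151, 156 and 154 CPM in persisters without TSA, with 81.7, 86.0 and 91.9 CPM in TSA-treated parental cells and 84.2, 83.1 and 88.4 CPM in DMSO-treated parental cells. Persisters without TSA were the high group and TSA brought them near the parental level; the effects were -0.74 ± 0.07 in persisters and 0.02 ± 0.07 in parental cells, a difference of -0.76 ± 0.10 (adjusted p = 2.08e-04). TREX1, a DNA nuclease, was a persister-only loss, with a difference of -1.17 ± 0.26.

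The difference of ribosomal protein genes, which are short, shrank with the length offset and also without replicates a. Of 30, 8 fell and 0 rose in persisters (median effect -0.29), 5 rose and 0 fell in parental cells (0.29), and 19 were lower in the difference (-0.58). Without replicates a, 29 fell in persisters (-0.28), 5 rose in parental cells (0.04) and 28 were lower in the difference (-0.34), and with the length offset the median was -0.26. Over all genes the median difference was -0.13, and it was -0.10 without replicates a and -0.01 with the offset. Whether transcript length had a part in the ribosomal protein genes was not tested. Of the KLF and SP factors, 3 of 15 were lower in the difference and 2 higher, near the 19.2% and 12.4% of all genes. The counts that follow should be read beside the same shares. The heat shock list had 6 of 20 lower and 2 higher. Elongation and pausing control had 7 of 21 lower and 2 higher, linker and replacement histones 3 of 16 in each direction, neuronal and synaptic genes 3 of 20 lower and 5 higher, mesenchymal genes 3 of 14 lower and 2 higher, and metallothioneins 2 of 5 lower and 1 higher.

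Leaving out replicates a moved several of the list counts above by over 1.5 times. Over all genes, lower differences went from 19.2% to 33.3% and higher ones from 12.4% to 21.6%. A gain in calls is thus not particular to these lists. Lower differences then numbered 13 for histone deacetylases and sirtuins, 11 for heterochromatin, 12 for p53 targets, 13 for epithelial genes, 10 for the BCL2 family, 11 for antigen presentation, 11 for L1 restriction, 7 for KLF and SP factors, 6 for linker and replacement histones, and 5 each for neuronal and mesenchymal genes. Higher differences numbered 5 for immediate early genes, 6 for KLF and SP factors, 5 for linker and replacement histones, 4 each for DNA replication, the heterochromatin list, the BCL2 family and mesenchymal genes, and 3 for genes that HDAC inhibitors repress. Of the mitosis genes, 14 then rose in parental cells, where 37.3% of all genes rose.

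EGFR itself, the target of erlotinib, had 414, 369.5 and 384 CPM in TSA-treated persisters and 589, 625 and 573 CPM in persisters without TSA, with 99.5, 283 and 481 CPM in TSA-treated parental cells and 1042, 1178 and 1168 CPM in DMSO-treated parental cells. All TSA-treated libraries lay below their controls, and the TSA-treated parental libraries spread widely, a being the lowest. The effects were -0.62 ± 0.37 in persisters (adjusted p = 0.193) and -1.97 ± 0.39 in parental cells (adjusted p = 0.00102), and the difference of 1.36 ± 0.53 was not called (adjusted p = 0.0717). It was called without replicates a (0.90, adjusted p = 0.00171) and with the length offset (1.21, adjusted p = 0.0399). The order of the 3 TSA-treated parental libraries in EGFR was that of the length trait given above, whose part in the result was not tested.

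Repeats were counted per subfamily by the same gene-based scaling. Reads of a subfamily are summed over many near-identical copies, also those inside genes, so a level cannot be assigned to a locus. Of 1070 subfamilies, 87 (8.13%) differed in TSA effect, 66 (6.17%) higher and 21 (1.96%) lower in persisters, and the median difference was 0.25. TSA changed 56 (5.23%) in persisters, 36 higher (3.36%) and 20 lower (1.87%), and 205 (19.2%) in parental cells, 74 higher (6.92%) and 131 lower (12.2%). Without replicates a, 19.2% rose and 10.5% fell in persisters, and 15.3% rose and 27.9% fell in parental cells. The counts of differences were sensitive to single libraries: 314 (29.3%) differed without replicates a, 214 without TSA-treated persisters a, and 140 and 198 without TSA-treated parental cells a and c. Leaving out a control library lowered the count, to 44, 43 and 36 without persisters a, b and c, and to 51, 42 and 57 without DMSO-treated parental cells a, b and c.

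Most LTR12 and HERV9 subfamilies rose in persisters. HERV9 is a family of endogenous retroviruses, and LTR12 are its long terminal repeats, promoters that HDAC inhibitors are known to open. Of 10 subfamilies, 7 rose in persisters (median effect 2.40) and 4 in parental cells (0.42), and 7 were higher in the difference (1.80) and 0 lower. LTR12C had 178, 159 and 163 CPM in TSA-treated persisters and 32.5, 33.2 and 32.0 CPM in persisters without TSA, with 81.9, 77.3 and 78.9 CPM in TSA-treated parental cells and 35.4, 35.8 and 37.0 CPM in DMSO-treated parental cells. TSA raised it in every library, more so in persisters, with effects of 2.35 ± 0.07 in persisters and 1.14 ± 0.07 in parental cells, a difference of 1.22 ± 0.10 (adjusted p = 1.79e-05). LTR12D had 67.0, 63.0 and 60.9 CPM in TSA-treated persisters and 4.35, 4.84 and 3.65 CPM in persisters without TSA, with 6.56, 9.66 and 10.4 CPM in TSA-treated parental cells and 3.84, 4.08 and 4.38 CPM in DMSO-treated parental cells. TSA-treated persisters stood far above all other libraries, with effects of 3.89 ± 0.18 in persisters and 1.12 ± 0.16 in parental cells, a difference of 2.78 ± 0.23 (adjusted p = 2.03e-05). The internal part of the provirus, HERV9-int, had 36.6, 38.0 and 37.0 CPM in TSA-treated persisters and 3.34, 3.66 and 3.69 CPM in persisters without TSA, with 2.39, 3.94 and 4.86 CPM in TSA-treated parental cells and 1.86, 1.79 and 1.95 CPM in DMSO-treated parental cells. Its controls were low in both states and only TSA-treated persisters exceeded 30 CPM, with effects of 3.38 ± 0.20 in persisters and 1.01 ± 0.20 in parental cells, a difference of 2.38 ± 0.27 (adjusted p = 4.26e-04). LTR12 was the member with the smallest p, with effects of 4.08 ± 0.16 in persisters and 1.30 ± 0.14 in parental cells, a difference of 2.77 ± 0.20 (adjusted p = 1.47e-05). The direction of these 4 differences held under every scaling tried.

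LINE-1 is a self-copying element whose L1M subfamilies are old fossil copies and whose youngest, L1HS, still holds active ones. Of 23 L1M subfamilies, 15 fell in parental cells (median effect -0.40), 4 rose in persisters (0.18), and 14 were higher in the difference (0.54 against 0.25 over all subfamilies). Without replicates a, 22 were higher, where 21.3% of all subfamilies were. L1MA7 had 23.8, 25.1 and 24.1 CPM in TSA-treated persisters and 24.2, 22.0 and 23.8 CPM in persisters without TSA, with 15.4, 14.2 and 14.6 CPM in TSA-treated parental cells and 26.1, 26.5 and 25.4 CPM in DMSO-treated parental cells. TSA-treated parental cells alone were low and the persister groups overlapped, with effects of 0.06 ± 0.08 in persisters and -0.82 ± 0.08 in parental cells, a difference of 0.88 ± 0.11 (adjusted p = 6.93e-04).

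Of the 9 youngest subfamilies, 6 fell in parental cells, 0 changed in persisters, and the difference was called for 1, L1PA5, with 0.12 ± 0.18 in persisters and -0.90 ± 0.18 in parental cells, a difference of 1.02 ± 0.25 (adjusted p = 0.0298). Without replicates a, 8 fell in parental cells, 1 rose and 2 fell in persisters, and 5 were higher in the difference. L1HS had 60.2, 57.3 and 56.3 CPM in TSA-treated persisters and 78.1, 78.4 and 74.0 CPM in persisters without TSA, with 19.7, 32.0 and 38.0 CPM in TSA-treated parental cells and 55.0, 59.03 and 55.8 CPM in DMSO-treated parental cells. Both TSA groups lay below their controls, TSA-treated parental cells a being the lowest of all, and the effects were -0.41 ± 0.17 in persisters (adjusted p = 0.188) and -0.92 ± 0.18 in parental cells (adjusted p = 0.00501). The difference was 0.51 ± 0.25 (adjusted p = 0.204) and, without replicates a, 0.25 (adjusted p = 0.0367). L1PA2, L1PA3 and L1PA4 had differences of 0.26 ± 0.25, 0.41 ± 0.20 and 0.58 ± 0.21, not called. Without replicates a, L1PA3 (0.27, adjusted p = 0.0381) and L1PA4 (0.43, adjusted p = 0.00103) were called and L1PA2 (0.05, adjusted p = 0.779) was not. In all of these, TSA-treated parental cells ran from a as the lowest to c, the order of the length trait, whose part was not tested. With spike-in library sizes the signs of L1HS, L1PA2 and L1PA3 turned, and 0 of them did once TSA-treated persisters a, with 46.0% spike-in reads, were left out as well. Of 12 older primate L1 subfamilies, 3 fell in parental cells and 1 was higher in the difference; without replicates a, 7 fell in parental cells, 4 rose in persisters, and 8 were higher and 1 lower in the difference.

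Subfamilies of LTR7, HERVH and the ERV1 class that were called in parental cells rose there. Of 6 LTR7 and HERVH subfamilies, 4 rose in parental cells, 0 changed in persisters, and 3 were lower in the difference (median -1.24). Without replicates a, 4 fell in persisters, 4 rose in parental cells, and 3 were opposite, with a median difference of -0.74. LTR7Y had 29.9, 36.5 and 35.2 CPM in TSA-treated persisters and 46.2, 48.5 and 46.4 CPM in persisters without TSA, with 248, 138 and 113 CPM in TSA-treated parental cells and 91.7, 82.6 and 96.1 CPM in DMSO-treated parental cells. TSA-treated parental cells a stood far above b and c, and the difference of -1.36 ± 0.31 was -0.87 without replicates a, as an opposite response. Of 21 MER and LTR subfamilies of the ERV1 class, 10 rose in parental cells, 1 in persisters, and 5 were lower in the difference; without replicates a, 14 rose and 1 fell in parental cells, 5 rose in persisters, and 9 were lower and 2 higher in the difference. MER65C had 21.6, 22.2 and 21.3 CPM in TSA-treated persisters and 31.6, 29.3 and 28.8 CPM in persisters without TSA, with 39.5, 39.9 and 36.6 CPM in TSA-treated parental cells and 26.0, 26.2 and 28.2 CPM in DMSO-treated parental cells. Its groups did not overlap, and its response was opposite, with effects of -0.46 ± 0.08 in persisters and 0.53 ± 0.08 in parental cells, a difference of -0.99 ± 0.11 (adjusted p = 3.07e-04). LTR2C had effects of -0.49 ± 0.24 in persisters and 2.24 ± 0.25 in parental cells, a difference of -2.73 ± 0.34 (adjusted p = 6.93e-04), and TSA-treated parental cells a were again far above b and c. HERVE-int was a persister-only loss, with a difference of -0.73 ± 0.12. Without replicates a LTR2C and HERVE-int were both opposite, with parental effects of 1.82 and 0.24.

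Of 17 AluS subfamilies 0 were called by edgeR in either state or for the difference, and without replicates a 1 fell in persisters, 5 fell in parental cells and 1 was higher in the difference. Of 10 AluY subfamilies 1, AluYd8, rose in persisters and was called for the difference; without replicates a it was opposite, 4 fell in parental cells and 3 were higher in the difference. SVA elements rose for 3 of 6 subfamilies in parental cells and 1 in persisters, with 0 called for the difference. LTR5 and HERVK had 1 of 10 subfamilies in each direction, LTR10 1 of 9 lower, the THE1 group 1 of 14 lower and satellites 0 of 8. Without replicates a, LTR5 and HERVK had 3 higher and 4 lower, LTR10 2 in each direction, the THE1 group 1 in each, satellites 3 higher and 2 lower, and SVA 1 lower. Over 57 repeat families, 4 (7.02%) had a higher TSA effect in persisters: L1 (0.47 ± 0.07), L2 (0.33 ± 0.07), RTE-X (0.46 ± 0.12) and simple repeats (0.83 ± 0.13). All 4 were parental-only losses, with parental effects of -0.37, -0.21, -0.29 and -0.66. In L1, RTE-X and simple repeats, but not L2, TSA-treated parental cells ran from a as the lowest to c. That is the order of the length trait, whose part was not tested. The 4 differences were 0.41, 0.29, 0.37 and 0.78 without replicates a. Without replicates a 17 families (29.8%) were called, 24.6% of the 57 higher and 5.26% lower.

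**Figure D5:**
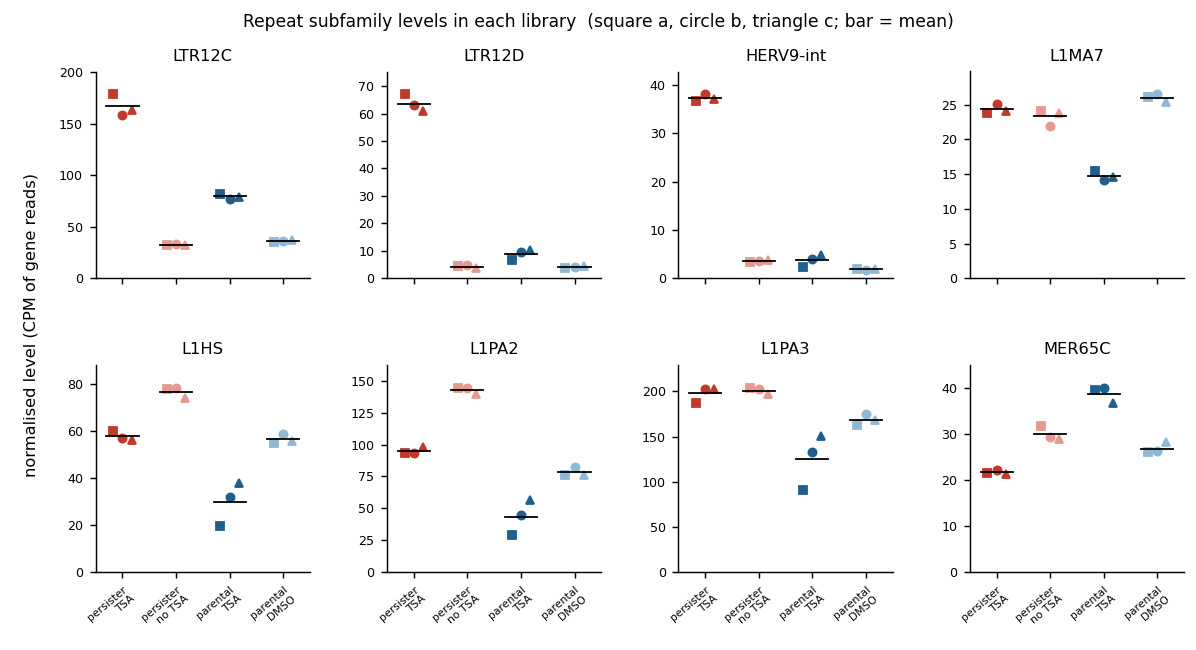
Normalised level (CPM of gene reads, vertical axes from 0) of 8 repeat subfamilies in each library, with groups ordered as TSA-treated persisters, persisters without TSA, TSA-treated parental cells and DMSO-treated parental cells, and the mean as a bar. LTR12C, LTR12D and HERV9-int are high in TSA-treated persisters, L1MA7 is low in TSA-treated parental cells, and in L1HS, L1PA2 and L1PA3 TSA-treated parental cells a are the lowest.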

How the data were processed

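RNA was sequenced from polyA-selected libraries with ERCC spike-in RNA added by cell number, per the labels. The deposited tables hold expected counts per gene, repeat and spike-in, made with Salmon per the submitters' processing notes. Its version, the genome build, the annotation and the strand setting are not given in those sources. In each of 5 tables, 3 columns match no sample and were not used. Of 30727 gene identifiers 27794 matched a symbol; those without held 0.361% of gene reads. Expected counts were rounded, and 17024 genes and 1070 subfamilies passed edgeR's expression filter; 57 families were tested without it.

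A single fit of 12 libraries with a term per group (edgeR 4.0.16, R 4.3.3, 8 residual degrees of freedom, biological coefficient of variation 0.170) gave both effects and their difference by the quasi-likelihood F-test, with p-values adjusted within each contrast and a threshold of 0.05. Without replicates a of both TSA groups the coefficient was 0.0528. Alternatives used limma 3.58.1 and DESeq2 1.42.0. Scripts were tested on simulated data. Genes were named by rule: 10 per direction by p, 5 per class and direction, 3 per list, each with at least 10 CPM in its highest group. AREG, BBC3, TGFA, TNF, TFEB, SPRY1, SPRY4, CREBBP, TREX1, NFKBIA and other list members outside the rule were added after their values were seen. A few genes that the rule picked are not reported here. The members, the 31 gene lists (549 genes, 523 tested) and the 14 repeat lists were chosen with earlier results of these data known. Promoters are from RefSeq (GRCh38.p14) and transcript lengths, known for 92.6% of genes, from GENCODE.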

Additional observations from a re-analysis of the deposited data

Results flagged for a closer look

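The TSA effect differed between persisters and parental cells, by the test of the difference itself (edgeR's quasi-likelihood test with Benjamini-Hochberg adjustment), for 5387 genes, 87 repeat subfamilies and 4 repeat families. In groups of 3 libraries no test for a single outlying library was made. In reads outside the main measurement, TSA-treated persisters a had 46.0% of reads from spike-in RNA and 7.09% from ribosomal RNA repeats, both above every library of persisters without TSA.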

How the results depend on the processing

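Gene counts stayed within 1.5 times the reported ones except in the first 4 settings below, whereas the count of subfamilies moved by more in most settings. Without replicate a of both TSA groups, 9353 genes were called for the difference, 8279 had shared and 1612 opposite responses, and 314 subfamilies and 17 families differed. With limma's quality-weighted fit these were 11391, 8998, 2319, 389 and 13. It gave TSA-treated persisters a a weight of 0.0665. TSA-treated parental cells a, b and c had weights of 0.0641, 4.99 and 0.244, so that this group rests mostly on b in that fit. With spike-in library sizes over all libraries the count was 0 for genes, every class, subfamilies and families (66 genes at an unadjusted p under 0.05, and 0 subfamilies and families), since TSA-treated persisters a held 46.0% spike-in reads. Without that library, spike-in sizes gave 1918 genes (638 higher and 1280 lower), 486 persister-only, 824 parental-only and 216 opposite responses, 31 subfamilies and 0 families (2 at an unadjusted p under 0.05). DESeq2 called 221 subfamilies and 13 families, size factors by median ratio 8 families, and the fit of all 18 libraries 249 subfamilies and 17 families. Of genes called, 39.3% were higher, 46.1% with DESeq2, 46.9% with median-ratio size factors and 51.0% with the length offset, an alternative chosen after seeing the data.

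Leaving out each replicate gave 4107 to 6536 genes, 4756 to 6330 shared, 1050 to 1563 persister-only, 1240 to 2101 parental-only and 487 to 951 opposite responses, 36 to 214 subfamilies and 3 to 14 families. The replicate block gave 5081 genes, 5191 shared, 1312 persister-only, 1612 parental-only and 638 opposite responses, 69 subfamilies and 4 families and changed no call of a count. The letters do not pair the libraries: of 18 correlations of deviations between same-lettered libraries 3 were over 0.1 (range -0.247 to 0.248), and 4 of 12 libraries correlated best with their own letter.

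Over 145 named genes and subfamilies, 3070 values kept their direction and call, 229 lost the call (134 of them with all spike-ins), 27 gained it and 9 changed sign. These were LRIG1 (-0.15 without replicates a, -0.10 with limma, -0.40 with spike-ins), CYP1B1 (-0.27), ZNF469 (-0.034), KLF5 (-0.12), L1HS (-0.012), L1PA2 (-0.22) and L1PA3 (-0.027) with all spike-ins. With spike-ins without TSA-treated persisters a, 0 turned, 100 kept their direction and call, and 45 lost the call. The cause was not tested. Depth limits the interferon genes with few reads in parental cells.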

Other observations

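Replication-dependent histone genes, which supply nucleosomes in S phase, were chosen after their values were seen. Of 41 tested, 19 rose and 0 fell in persisters (median effect 1.29), 1 rose and 3 fell in parental cells (-0.61), and 18 were higher in the difference (1.89) and 0 lower. Without replicates a, 21 rose and 1 fell in persisters (0.91), 2 rose and 16 fell in parental cells (-0.78), where 35.4% of all genes fell, and 23 were higher in the difference (1.63). Most were below 10 CPM, near-identical copies share reads, and transcripts of these genes mostly lack a polyA tail. H2BC8 had 6.79, 3.85 and 3.67 CPM in TSA-treated persisters and 1.23, 1.64 and 1.39 CPM in persisters without TSA, with 0.0629, 0.0457 and 0.0764 CPM in TSA-treated parental cells and 0.206, 0.566 and 0.182 CPM in DMSO-treated parental cells. TSA-treated persisters were above every other library, a above b and c, with a difference of 4.07 ± 0.64 (adjusted p = 6.28e-04). TSA-treated parental cells had at most 0.0764 CPM, so the size of this difference rests on few reads. TSA-treated persisters a and DMSO-treated parental cells b also had the most small nuclear RNA repeats of their groups (226 and 33.7 CPM). In the other groups the library highest in H2BC8 was not the one with most of these repeats. Whether this library trait had a part was not tested. H2BC5 had 71.2, 64.6 and 61.7 CPM in TSA-treated persisters and 36.5, 37.5 and 37.3 CPM in persisters without TSA, with 6.32, 3.90 and 4.01 CPM in TSA-treated parental cells and 4.33, 4.70 and 3.75 CPM in DMSO-treated parental cells, and a difference of 0.68 ± 0.22 (adjusted p = 0.0365).

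Of 17 matrix metalloproteinases, also chosen after their values were seen, 5 were higher in the difference and 1 lower, and without replicates a 8 and 4. MMP1, which cuts fibrillar collagen, had 3.19, 1.81 and 2.05 CPM in TSA-treated persisters and 1.84, 1.43 and 1.84 CPM in persisters without TSA, with 1.07, 1.23 and 0.756 CPM in TSA-treated parental cells and 8.79, 9.03 and 8.29 CPM in DMSO-treated parental cells. DMSO-treated parental cells were the high group, and TSA-treated parental cells lay below them without overlap, with a difference of 3.54 ± 0.34 (adjusted p = 2.21e-05). Of 9 clade B serpins, the family of SERPINB2, 6 fell and 0 rose in parental cells and 3 fell and 1 rose in persisters, with 3 higher and 1 lower in the difference, and 5 and 2 without replicates a.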
